A study of Mus musculus with 16 samples.

Results

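Cortex of Pdgfb ret/ret mice was compared with cortex of Pdgfb ret/wt mice, 4 libraries against 4, which are 8 of the 16 libraries of the data set. Both groups were C57BL/6 mice aged 4 months, and both carried the Pdgfb retention allele, on 1 chromosome copy in ret/wt and on both copies in ret/ret. The baseline of the comparison therefore carries the allele too, and no wild-type animal was included. Every cortex library came from a different animal, so p-values of the cortex comparison measure the spread between animals. The labels do not give sex. The same 8 animals gave the other 8 libraries, from thalamus. Cortex was taken as a part of the brain not prone to calcify, whereas in ret/ret thalamus the dissected pieces were calcifications, found by their own fluorescence. The comparison covers all genes and addresses what the genotype does to vessels, glia and neurons where the tissue holds no calcification. Pdgfb itself was not analysed here.

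PDGF-B is a growth factor that endothelial cells release and that is held at the vessel wall by its retention motif, where it draws in and maintains pericytes, the mural cells of capillaries, through their receptor PDGFRB. Without the motif the factor is not held in place, and brain capillaries of ret/ret mice are known to carry few pericytes and to have a leaky barrier. The allele is constitutive, so it is present in every cell type of the tissue, and in whole tissue fewer cells of a type and less RNA per cell cannot be told apart.

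The deposited values were expected counts, and levels are given here as CPM, counts scaled to the same library total, with TMM factors over the 8 cortex libraries. Total counts ran from 13415391 to 24500733 per library in ret/wt cortex and from 14093145 to 29135064 in ret/ret cortex, and 3 counts, taken as the floor, corresponded to 0.103 to 0.224 CPM. Mitochondrial genes took 3.22% to 8.43% of the counts in ret/wt and 4.29% to 7.05% in ret/ret. The libraries expressed markers of cortical projection neurons throughout, but 3 of them stood apart in markers of other tissue. Summed over a list of cerebellum genes, ret/wt replicate 3 held 2075 CPM and ret/ret replicate 2 held 4873 CPM, against 25.1 to 64.3 CPM in the other 6 libraries. These 2 libraries were also the ones with Y-linked Ddx3y reads, at 63.4 and 71.8 CPM against at most 0.214 CPM elsewhere. Choroid plexus genes summed to 1723 CPM in ret/wt replicate 4 and to 206 to 428 CPM in the other 7 libraries, and hippocampal genes to 248 CPM in that library and 37.0 to 56.5 CPM in the others. Many results that lean on these libraries, though not all, are given with and without them.

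Among 14288 genes in the cortex test, 3 passed at an adjusted p below 0.05 (edgeR quasi-likelihood, Benjamini-Hochberg), or 0.0210% of the genes. Edn1 and Fmo2 rose (0.0140% of genes were called higher), and Rgs5 fell (0.00700% were called lower). Edn1, which encodes the vasoconstrictor peptide endothelin-1, stood at 2.12, 2.68, 3.74 and 2.64 CPM in ret/wt replicates 1 to 4 and at 31.9, 18.1, 23.3 and 18.1 CPM in ret/ret replicates 1 to 4. Fmo2, a flavin monooxygenase that oxidises nitrogen- and sulphur-containing compounds, stood at 2.12, 1.83, 2.39 and 3.27 CPM in ret/wt and at 19.1, 16.2, 10.3 and 15.6 CPM in ret/ret. Rgs5, a regulator of G-protein signalling that marks brain pericytes, stood at 61.4, 61.6, 46.6 and 60.3 CPM in ret/wt and at 20.8, 13.5, 15.04 and 21.5 CPM in ret/ret. None of the 3 overlapped between genotypes: the lowest ret/ret library of Edn1 and of Fmo2 lay well above the highest ret/wt library, and the highest ret/ret library of Rgs5 lay well below the lowest ret/wt one. The fitted ratio is the log2 fold change of the edgeR fit turned back to the linear scale. It was 8.11-fold for Edn1 and 6.32-fold for Fmo2 in favour of ret/ret, and 3.25-fold for Rgs5 in favour of ret/wt. The log2 fold changes were 3.02 ± 0.28 (SE), 2.66 ± 0.29 (SE) and -1.70 ± 0.20 (SE), with adjusted p of 0.0129, 0.0268 and 0.0410 (edgeR quasi-likelihood, Benjamini-Hochberg). With 1 library left out at a time, 0 to 2 genes passed: 0 without ret/wt replicate 1, 2 or 4, and Edn1 in each of the other 5 cases, joined by Fmo2 without ret/ret replicate 3. At an unadjusted p under 0.05, 2.62% of all genes were higher and 1.14% lower. DESeq2 called 39 genes (0.273%), 35 higher and 4 lower, among them these 3. Of the 39, 16 are on a vessel list, as are 198 of all genes tested (1.39%). The vessel lists include the endothelin and flavin monooxygenase lists, which hold Edn1 and Fmo2. On the interferon, GTPase or antigen presentation lists, with 28, 14 and 22 tested genes, are 4 of the 39. A neuron list, that of 24 tested immediate early genes, holds 1, Fosb. The lists were chosen with earlier results of these data known, so these counts and the list shares below are descriptive.

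**Figure D1:**
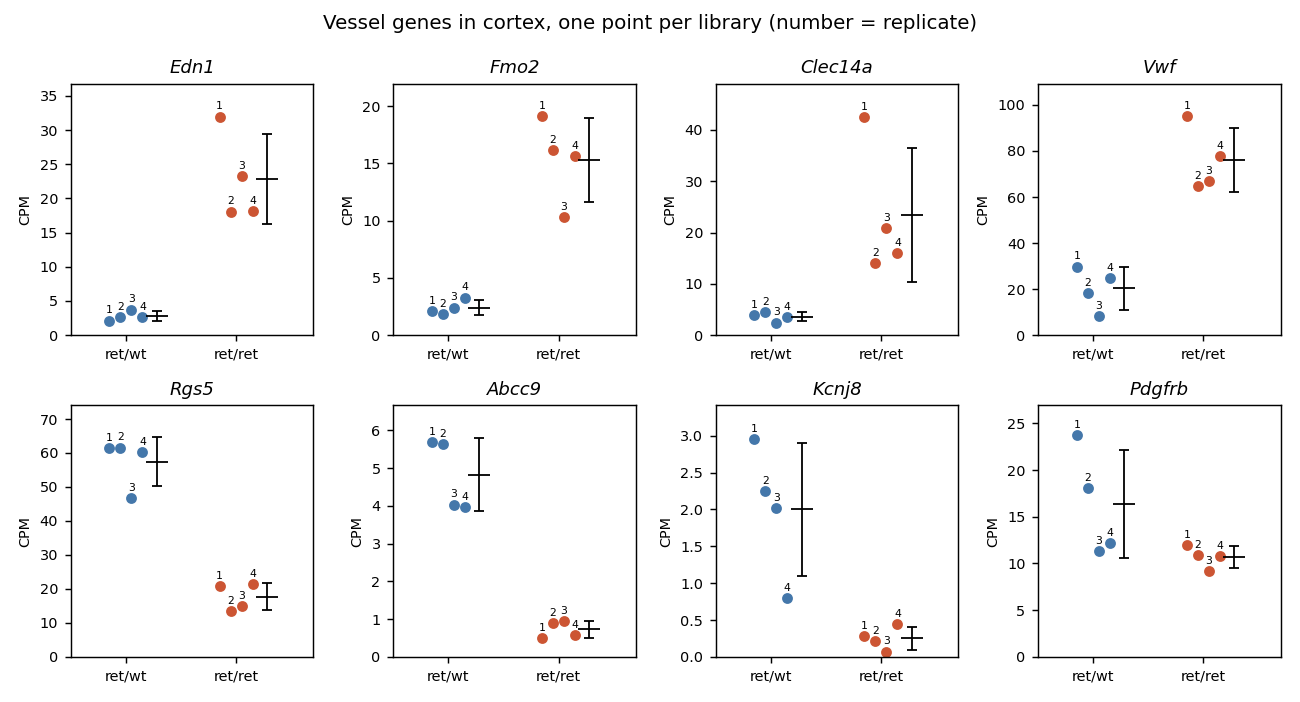
CPM (TMM-scaled) of 8 vessel genes in each cortex library, 1 panel per gene with a linear axis from 0; points are libraries numbered by replicate, blue for ret/wt and red for ret/ret, and the bars give mean and SD of 4 libraries. The red points of Edn1, Fmo2, Clec14a and Vwf lie above all blue points, those of Rgs5, Abcc9 and Kcnj8 below all blue points, and those of Pdgfrb overlap with them.

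On the mural side, genes of the pericyte list were lower in ret/ret, and a pair of genes for the vascular ATP-sensitive potassium channel had its lowest log2 fold changes. Of the 24 genes of the list, 19 had enough counts to be tested, and 15 of these had a log2 fold change below 0, with a median of -0.62 against 0.01 over all genes tested. In 4 of the 19 every ret/ret library lay below every ret/wt library, where 0.644% of all genes did so (92 genes), and in none did the ret/ret libraries all lie above, as in 1.80% of all genes (257 genes). At an unadjusted p under 0.05, 7 of the 19 were lower and 0 higher, where 1.14% and 2.62% of all genes were. The 4 without overlap were Rgs5, Abcc9, Kcnj8 and Art3, and Rgs5 alone passed adjustment over all genes. The summed level of the list was 239.7, 241, 194 and 171 CPM in ret/wt replicates 1 to 4 and 125, 289.6, 81.05 and 111 CPM in ret/ret replicates 1 to 4. It was lower in ret/ret replicates 1, 3 and 4 than in any ret/wt library and highest of all 8 in ret/ret replicate 2, one of the libraries with cerebellum markers. Counts and medians of a list are given throughout over its tested genes, since genes with too few counts carry no fold change.

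Abcc9, the sulphonylurea receptor subunit of that channel (ENSMUSG00000030249, chromosome 6, 142587862 to 142702315, - strand), stood at 5.69, 5.63, 4.03 and 3.96 CPM in ret/wt and at 0.499, 0.899, 0.956 and 0.570 CPM in ret/ret. Kcnj8, its pore subunit (ENSMUSG00000030247, chromosome 6, 142564837 to 142571614, - strand), lies next to it on the same strand and stood at 2.96, 2.25, 2.02 and 0.792 CPM in ret/wt and at 0.285, 0.214, 0.0708 and 0.443 CPM in ret/ret. All 4 ret/ret libraries were below all 4 ret/wt libraries for both genes, and in Kcnj8 they were near the floor, with 2 to 7 counts per library. The fitted ratio was 6.45-fold for Abcc9 in favour of ret/wt, on the log2 scale -2.69 ± 0.35 (SE), at an adjusted p of 0.0659 (edgeR quasi-likelihood, Benjamini-Hochberg). Abcc9 passed the threshold in 4 of 20 alternative analyses. Kcnj8 came to -3.02 ± 0.62 (SE) on the log2 scale at an adjusted p of 0.476 (edgeR quasi-likelihood, Benjamini-Hochberg), and both genes passed in DESeq2. Art3, an ADP-ribosyltransferase family member found in pericytes, stood at 4.85, 2.46, 1.76 and 1.80 CPM in ret/wt and 1.43, 0.214, 0.460 and 0.886 CPM in ret/ret, again without overlap.

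The receptor of the factor itself differed less. Pdgfrb stood at 23.7, 18.1, 11.3 and 12.1 CPM in ret/wt and at 11.98, 10.9, 9.17 and 10.8 CPM in ret/ret, so that ret/ret replicate 1 lay among the ret/wt libraries, and the log2 fold change, -0.61 ± 0.26 (SE), had an unadjusted p of 0.0414. Notch3, a receptor of mural cells, overlapped between genotypes at a log2 fold change of -0.62 ± 0.41 (SE). Vtn, the secreted adhesion protein vitronectin and an abundant pericyte transcript, ran from 15.7 to 73.6 CPM in ret/ret with its highest value in replicate 2, around the ret/wt range of 24.6 to 38.1 CPM. Its log2 fold change was 0.20, and -0.44 without ret/ret replicate 2. Leaving out both libraries with cerebellum markers moved the pericyte median to -1.07, with 8 of 19 genes below without overlap where 3.97% of all genes were. Without ret/ret replicate 1 it was -0.67, with 7 of 22 below where 1.86% of all genes were.

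Among the 6 PDGF ligands and receptors tested, Pdgfd was the only one without overlap (2.44% of all genes). Pdgfd, a further ligand of PDGFRB, stood at 3.49, 2.18, 5.88 and 3.38 CPM in ret/wt and at 9.48, 17.9, 6.55 and 6.33 CPM in ret/ret, with all ret/ret values above and replicate 2 the highest (log2 fold change 1.42 ± 0.42 (SE), unadjusted p 0.00750). Pdgfa, a ligand of the alpha receptor, stood at 34.1, 32.04, 28.2 and 25.6 CPM in ret/wt and at 16.5, 12.4, 26.6 and 23.5 CPM in ret/ret, with overlap in 1 library, replicate 3. Pdgfra, the alpha receptor of oligodendrocyte precursors and fibroblasts, had a log2 fold change of -0.52 ± 0.28 (SE) with overlapping groups.

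Contractile smooth muscle genes were mixed. Of 12 tested of 16, 8 had a log2 fold change above 0, with a median of 0.34. Higher without overlap was 1 gene, Synpo2, where 1.80% of all genes were. The median was 0.06 without ret/ret replicate 1 and 0.14 without ret/ret replicate 2. In each case 1 gene was higher and 1 lower without overlap. Over all genes 3.56% were higher and 1.86% lower without replicate 1, and 2.58% and 1.84% without replicate 2. Synpo2, an actin-binding protein of contractile cells, stood at 5.92, 4.01, 4.66 and 5.18 CPM in ret/wt and at 10.9, 10.9, 7.04 and 7.34 CPM in ret/ret. Acta2, smooth muscle actin, stood at 5.23, 4.93, 3.44 and 4.81 CPM in ret/wt and at 3.64, 6.76, 5.10 and 4.68 CPM in ret/ret with overlapping groups. Tagln, transgelin, likewise overlapped at a log2 fold change of -0.47 ± 0.48 (SE). No gene of the fibroblast and meninges list (14 tested, median -0.01) or of the basement membrane and collagen list (23 tested, median 0.22) was free of overlap. The collagen list median turned to -0.16 without ret/ret replicate 1, and the fibroblast median was -0.47 without ret/ret replicate 2. Without both libraries with cerebellum markers the fibroblast median was -0.49, with 3 of 14 genes lower without overlap where 3.97% of all genes were.

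On the endothelial side most identity genes were higher in ret/ret. Of 20 tested of 22, 18 had a log2 fold change above 0, with a median of 0.74, and 7 lay above without overlap, where 1.80% of all genes did: Clec14a, Eng, Adgrl4, Kdr, Ptprb, Robo4 and Tie1. The summed level of the list was 330.3, 322, 256 and 224 CPM in ret/wt replicates 1 to 4 and 757, 391, 495 and 371 CPM in ret/ret replicates 1 to 4. Every ret/ret library was above every ret/wt library in this sum, and replicate 1 was the highest of all, being the top library in 16 of the 20 genes. Without replicate 1, 8 genes were higher and 1 lower without overlap, where 3.56% and 1.86% of all genes were, and the median was 0.57.

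Clec14a, a lectin-like receptor of endothelial cells (ENSMUSG00000045930, chromosome 12, 58264720 to 58269290, - strand), had the largest log2 fold change of the list. It stood at 3.87, 4.51, 2.44 and 3.49 CPM in ret/wt and at 42.6, 14.04, 20.9 and 16.01 CPM in ret/ret, every ret/ret library far above the ret/wt range. The fitted ratio was 6.55-fold for Clec14a, or 2.71 ± 0.39 (SE) as a log2 fold change, with an adjusted p of 0.0879 (edgeR quasi-likelihood, Benjamini-Hochberg). Eng, the TGF-beta co-receptor endoglin, stood at 21.8, 18.2, 9.62 and 13.9 CPM in ret/wt and at 87.6, 35.1, 50.8 and 38.2 CPM in ret/ret. Adgrl4, an adhesion receptor of angiogenic endothelium, stood at 14.2, 13.4, 25.7 and 11.4 CPM in ret/wt and at 79.2, 39.9, 45.2 and 33.4 CPM in ret/ret. Both had no overlap and a wide ret/ret range led by replicate 1. Kdr, the main VEGF receptor, stood at 13.6, 13.2, 6.64 and 9.35 CPM in ret/wt and at 40.7, 17.04, 26.7 and 20.1 CPM in ret/ret.

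Other endothelial genes differed less or went the other way, so the higher levels were not common to all of them. Pecam1, the junctional adhesion molecule CD31, and Cdh5, VE-cadherin, had overlapping groups at log2 fold changes of 0.68 ± 0.33 (SE) and 0.67 ± 0.40 (SE). Tek, the receptor of the angiopoietins, and Flt1, a VEGF receptor with a decoy function, were at 0.33 and -0.11 on the log2 fold change scale, again with overlap. Ly6c1, a surface protein of brain capillary endothelium, stood at 19.3, 25.3, 17.2 and 18.6 CPM in ret/wt and at 19.1, 14.1, 10.9 and 9.68 CPM in ret/ret, lower in 3 of 4 ret/ret libraries.

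Of 14 tested genes of endothelial activation 4 lay higher without overlap (1.80% of all genes), among them Edn1, Vwf and Angpt2. The list median was 0.27, and 0.16 without ret/ret replicate 2. Without ret/wt replicate 3 it was 0.75, with 7 of 14 higher without overlap where 4.15% of all genes were. Vwf, the von Willebrand factor stored with angiopoietin-2 in endothelial granules, stood at 29.7, 18.4, 8.19 and 24.8 CPM in ret/wt and at 94.98, 64.7, 66.7 and 77.8 CPM in ret/ret. Angpt2, which opposes the stabilising ligand of TEK, stood at 1.59, 2.68, 1.09 and 1.48 CPM in ret/wt and at 17.3, 5.44, 8.95 and 4.87 CPM in ret/ret. The fitted ratios were 3.76-fold and 5.35-fold, and neither passed adjustment (adjusted p 0.361 and 0.476, edgeR quasi-likelihood with Benjamini-Hochberg), while both passed in DESeq2. The leukocyte adhesion molecules differed less. Vcam1 was at 33.3, 38.4, 49.1 and 37.3 CPM in ret/wt and 49.2, 49.2, 45.7 and 47.3 CPM in ret/ret, where the overlap came from ret/wt replicate 3 alone. Icam1 was at 2.50, 2.82, 12.4 and 2.22 CPM in ret/wt and 4.99, 4.20, 3.61 and 3.04 CPM in ret/ret, and its log2 fold change went from -0.35 to 0.64 without ret/wt replicate 3.

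The endothelin system was represented by 7 tested genes, and Edn1 was the only one without overlap (2.44% of all genes). Edn3, the ligand that prefers the B receptor, had a log2 fold change of 0.46 ± 0.37 (SE). The receptors had log2 fold changes of -0.19 ± 0.30 (SE) for Ednra, the contractile receptor of mural cells, and 0.62 ± 0.30 (SE) for Ednrb, which astrocytes and endothelium carry. Ece1, the enzyme that cuts the precursor to the active peptide, stood at 63.2, 52.9, 83.2 and 38.98 CPM in ret/wt and at 55.3, 87.6, 84.8 and 41.01 CPM in ret/ret, with full overlap. All 4 of these genes overlapped between genotypes.

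In the TGF-beta and BMP list, 17 of 22 genes had a log2 fold change above 0 (51.9% of all genes), with a median of 0.28, and 5 lay higher without overlap (1.80% of all genes). Besides Eng these were Acvrl1, the endothelial BMP receptor ALK1 that works with endoglin, its ligand-family member Bmp6, and the BMP target genes Id1 and Id3. Acvrl1 stood at 12.97, 11.8, 6.68 and 10.3 CPM in ret/wt and at 18.7, 15.1, 17.8 and 18.04 CPM in ret/ret. Id3, an inhibitor of DNA binding by bHLH factors, stood at 15.7, 22.7, 7.48 and 19.7 CPM in ret/wt and at 53.6, 33.95, 27.8 and 47.98 CPM in ret/ret. The log2 fold changes were 0.74 for Acvrl1, 0.77 for Bmp6, 0.76 for Id1 and 1.32 for Id3. Without ret/wt replicate 3, and with the scaling fitted anew, 3 of the 22 genes were higher without overlap, where 4.15% of all genes were. Of 16 VEGF and tip cell genes Kdr was the only one higher without overlap (1.80% of all genes). Of 14 Notch genes none was, at a list median of -0.16.

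Of 29 barrier transporter and junction genes, 22 had a log2 fold change above 0 (51.9% of all genes), with a list median of 0.17. At an unadjusted p under 0.05, 6 were higher and 1 lower, where 2.62% and 1.14% of all genes were. The median was 0.07 without both libraries with cerebellum markers. Slco1a4, Abcg2 and Itm2a were higher without overlap and Mfsd2a was lower, where 1.80% and 0.644% of all genes were. Itm2a, a transmembrane protein of brain endothelium, stood at 39.4, 41.5, 33.9 and 27.7 CPM in ret/wt and at 100.05, 96.5, 73.9 and 76.9 CPM in ret/ret, or 1.29 ± 0.18 (SE) as a log2 fold change at an adjusted p of 0.0879 (edgeR quasi-likelihood, Benjamini-Hochberg). Slco1a4, an organic anion transporter, stood at 37.3, 32.8, 32.5 and 25.5 CPM in ret/wt and at 126, 100.2, 64.7 and 45.6 CPM in ret/ret. Abcg2, an efflux pump, stood at 17.8, 22.7, 23.98 and 16.2 CPM in ret/wt and at 41.4, 31.9, 30.6 and 42.8 CPM in ret/ret. The ret/ret libraries of these 3 genes lay above all ret/wt libraries, with the widest gap in Itm2a. Mfsd2a, the lipid transporter that keeps endothelial transcytosis low, stood at 15.9, 17.3, 14.4 and 20.7 CPM in ret/wt and at 14.3, 10.7, 7.40 and 9.43 CPM in ret/ret, the highest ret/ret library just under the lowest ret/wt library. Slc2a1, the glucose transporter GLUT1, had a log2 fold change of 0.27 ± 0.16 (SE) with overlap.

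Of 14 arterial endothelial genes, 3 were higher without overlap, against 1.80% of all genes. They were Bmx, a tyrosine kinase of arterial endothelium, at a log2 fold change of 1.47 ± 0.33 (SE), Gkn3 at 1.30 ± 0.33 (SE), and Tm4sf1, a tetraspanin-like protein of endothelial protrusions, at 1.13 ± 0.26 (SE). The arterial list median was 0.33, and 0.14 without both libraries with cerebellum markers. All 3 flavin monooxygenases with enough counts were above 0 in log2 fold change. Fmo5 stood at 4.40, 3.94, 4.03 and 4.17 CPM in ret/wt and 9.84, 8.13, 6.23 and 7.28 CPM in ret/ret without overlap (log2 fold change 0.93 ± 0.24 (SE)). Fmo1 stood at 6.75, 7.53, 5.67 and 7.87 CPM in ret/wt and 12.6, 6.55, 6.23 and 10.2 CPM in ret/ret with overlap. Markers of blood cells summed to 3.87 to 27.3 CPM in ret/wt and 6.78 to 50.7 CPM in ret/ret, highest in replicate 1, and their part in the endothelial values was not tested.

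**Figure D2:**
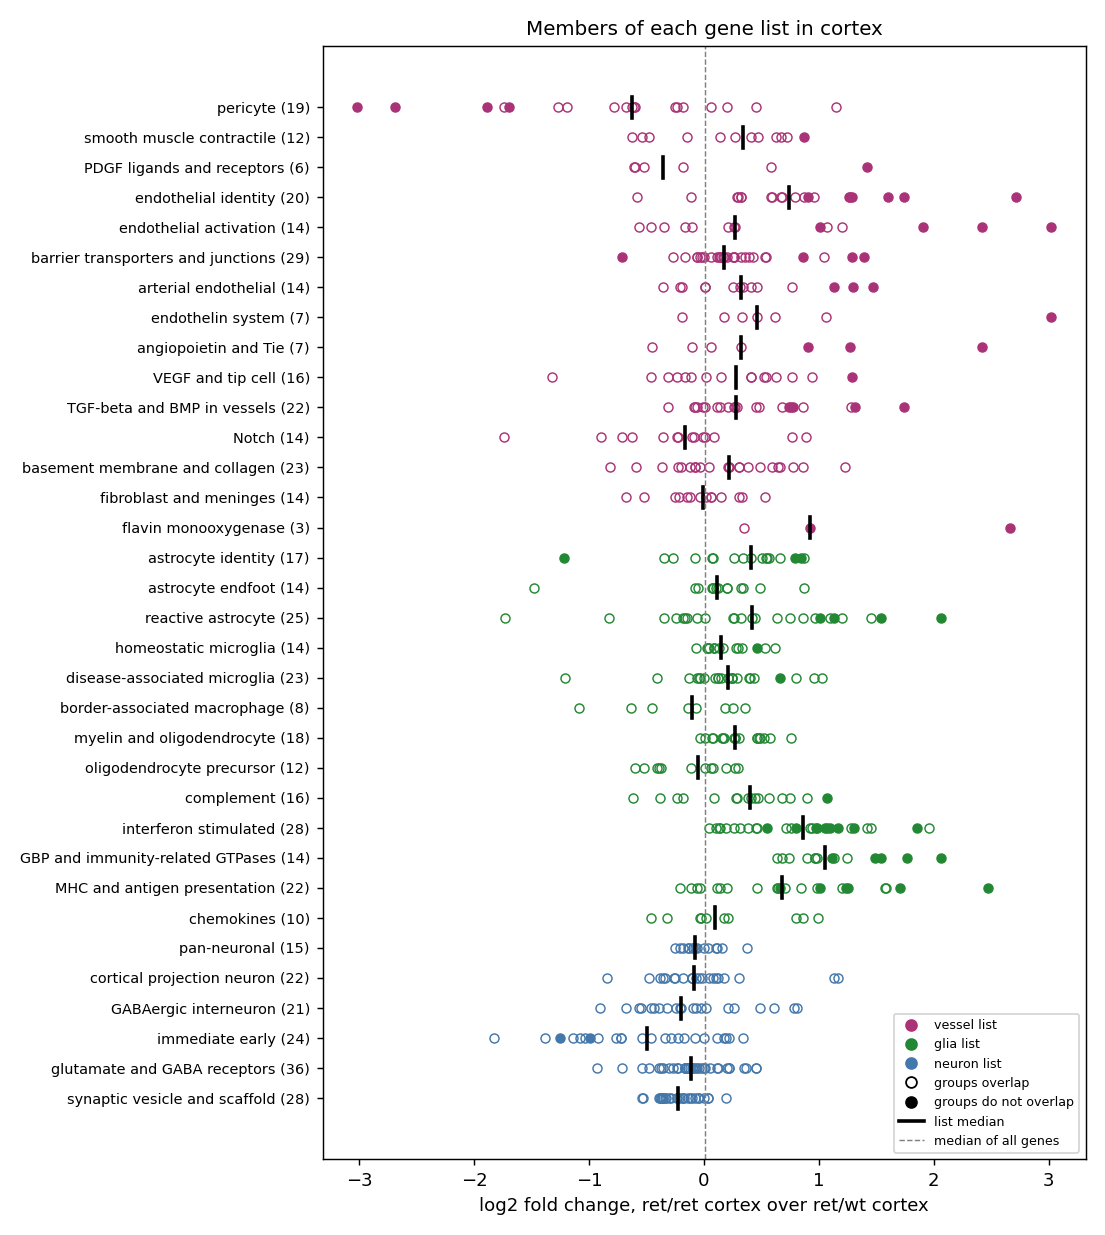
Log2 fold change of ret/ret over ret/wt cortex for each tested member of 34 gene lists, with the number of tested genes in parentheses; vessel lists are purple, glia lists green and neuron lists blue. Filled circles mark genes whose 4 ret/ret values lie all above or all below the 4 ret/wt values, black bars are list medians and the dashed line is the median of all genes (0.01); filled circles sit left of 0 in the pericyte list and right of 0 in the endothelial, interferon and GBP lists.

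Interferon-stimulated genes, which many cell types of brain switch on in response to interferons, were higher in ret/ret cortex as a group. The list has 32 genes, of which 28 were tested. All 28 had a log2 fold change above 0, as 51.9% of all genes did, with a median of 0.87. At an unadjusted p under 0.05, 12 of the 28 were higher, where 2.62% of all genes were. In 8 of the 28 all ret/ret libraries lay above all ret/wt libraries, against 1.80% of all genes (among them Usp18, Dhx58, Ifit3, Parp14, Ifitm3, Ifit1 and Ifih1). None passed adjustment over all genes. The summed level of the list was 219.98, 192, 214 and 157 CPM in ret/wt and 410.01, 263, 264 and 224 CPM in ret/ret, all 4 ret/ret libraries above, with replicate 1 the highest in 19 of the 28 genes.

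Ifit3, an interferon-induced protein with tetratricopeptide repeats, stood at 10.5, 10.98, 15.4 and 6.71 CPM in ret/wt and at 40.2, 23.2, 16.9 and 17.9 CPM in ret/ret. Usp18, which removes ISG15 from proteins and dampens interferon signalling, stood at 0.910, 0.634, 0.714 and 0.951 CPM in ret/wt and at 5.13, 1.88, 1.91 and 2.78 CPM in ret/ret. In both the ret/ret range began above the end of the ret/wt range, and replicate 1 was well above the rest. The log2 fold changes were 1.17 ± 0.34 (SE) for Ifit3 and 1.85 ± 0.43 (SE) for Usp18. Ifit3 shares sequence with the copy Ifit3b, so the split of its reads is uncertain.

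The guanylate-binding proteins and immunity-related GTPases, cell-autonomous defence proteins induced mainly by interferon-gamma, had the highest median among the vessel, glia and neuron lists, 1.05. Of 18 genes 14 were tested, and all 14 were above 0 in log2 fold change. Higher without overlap were 5, against 1.80% of all genes: Gbp2, Iigp1, Ifi47, Gbp6 and Gbp5. Gbp2 stood at 4.32, 3.66, 3.74 and 2.54 CPM in ret/wt and at 12.8, 10.2, 9.34 and 9.05 CPM in ret/ret, with the ret/wt libraries close to each other and even the lowest ret/ret library well above them. Iigp1 stood at 1.44, 1.48, 0.756 and 1.06 CPM in ret/wt and at 8.06, 3.85, 3.57 and 4.24 CPM in ret/ret, also clear of each other. The log2 fold changes were 1.54 ± 0.26 (SE) for Gbp2 and 2.06 ± 0.40 (SE) for Iigp1, with adjusted p of 0.225 and 0.447 (edgeR quasi-likelihood, Benjamini-Hochberg), and both passed in DESeq2. Gene copies in this family are alike, so single members are less certain than the group. Without ret/ret replicate 1 the medians were 0.54 for the interferon list, with 8 of 29 genes higher without overlap, and 0.84 for the GTPase list, with 5 of 15, where 3.56% of all genes were.

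The promoters of these genes are shown because both lists were written as genes induced by interferons and because a large share of them hold the same short motif. A high share is therefore a property of how these lists were written and no result about ret/ret cortex. The motif searched was GAAANNGAAA on either strand, a core of the interferon-stimulated response element, in the 250 bases before the RefSeq transcription start on GRCm38.p6. It was present in 3.16% of the 10884 tested genes that have a promoter in the RefSeq table. It was present in 9 of 20 interferon list genes (45%), in 9 of 10 GTPase list genes (90%), in 3 of 17 antigen presentation genes (17.6%), in 4 of 19 immediate early genes (21.1%), in 1 of 16 pericyte genes (6.25%) and in 0 of 11 endothelial identity genes. Among genes without overlap whose promoter was searched, 2 of 4 interferon genes (50%) and 2 of 3 GTPase genes (66.7%) held it. The genes of these lists without overlap that held it were Ifit1, Ifit3, Gbp2, Gbp5, B2m and the lower Fosl2. The 250 bases of the first 4, written in the direction of the gene and with the matches in capitals, lie at chr19:34640639-34640888 (Ifit1), chr19:34583279-34583528 (Ifit3), chr3:142620413-142620662 (Gbp2) and chr3:142496684-142496933 (Gbp5), all on the + strand:
Ifit1: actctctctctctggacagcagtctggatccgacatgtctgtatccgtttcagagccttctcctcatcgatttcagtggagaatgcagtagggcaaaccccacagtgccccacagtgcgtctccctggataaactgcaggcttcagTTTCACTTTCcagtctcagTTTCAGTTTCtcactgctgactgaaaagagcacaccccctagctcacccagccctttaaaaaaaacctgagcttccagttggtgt
Ifit3: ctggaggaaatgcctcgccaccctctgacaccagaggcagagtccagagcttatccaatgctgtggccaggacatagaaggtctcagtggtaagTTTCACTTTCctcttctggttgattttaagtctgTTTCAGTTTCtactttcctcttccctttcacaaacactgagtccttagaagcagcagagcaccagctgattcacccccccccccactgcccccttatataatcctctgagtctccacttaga
Gbp2: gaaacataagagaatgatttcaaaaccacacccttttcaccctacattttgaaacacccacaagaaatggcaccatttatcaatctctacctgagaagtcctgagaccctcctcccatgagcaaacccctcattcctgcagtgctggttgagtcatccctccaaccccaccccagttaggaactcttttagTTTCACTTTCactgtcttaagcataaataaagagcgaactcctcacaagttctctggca
Gbp5: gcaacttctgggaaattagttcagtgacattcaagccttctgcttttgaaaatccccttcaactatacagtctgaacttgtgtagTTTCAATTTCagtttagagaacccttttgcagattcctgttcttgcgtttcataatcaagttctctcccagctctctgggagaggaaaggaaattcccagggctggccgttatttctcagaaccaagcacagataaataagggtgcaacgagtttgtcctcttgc
Ifit1 and Ifit3, neighbours on chromosome 19, held 2 matches each, the nearer one 75 and 112 bases from the start. Gbp2 and Gbp5, in the GBP cluster on chromosome 3, held 1 match each, 49 and 155 bases from the start. A match is a description of the letters in this window and no measurement of binding.

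Antigen presentation genes had a log2 fold change above 0 in 18 of 22 cases, as 51.9% of all genes did, with a median of 0.68, and 6 were higher without overlap, against 1.80% of all genes: H2-K1, H2-Q4, H2-Q6, H2-Q7, B2m and Psmb8. H2-K1, a classical class I molecule, stood at 29.1, 24.3, 19.3 and 18.3 CPM in ret/wt and at 82.1, 48.8, 41.3 and 44.1 CPM in ret/ret, the lowest ret/ret library above the highest ret/wt one. B2m, the light chain shared by class I molecules, stood at 71.3, 64.99, 65.9 and 35.2 CPM in ret/wt and at 110.2, 88.7, 97.04 and 79.6 CPM in ret/ret, with the groups close but separate. Psmb8, an immunoproteasome subunit, stood at 2.35, 2.04, 2.06 and 2.64 CPM in ret/wt and at 7.84, 4.07, 2.80 and 3.67 CPM in ret/ret. The log2 fold changes were 1.25 ± 0.26 (SE) for H2-K1, 0.66 ± 0.23 (SE) for B2m and 2.48 ± 0.54 (SE) for H2-Q7, and near-identical sequences of H2-Q6 and H2-Q7 make the split between those 2 uncertain.

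**Figure D3:**
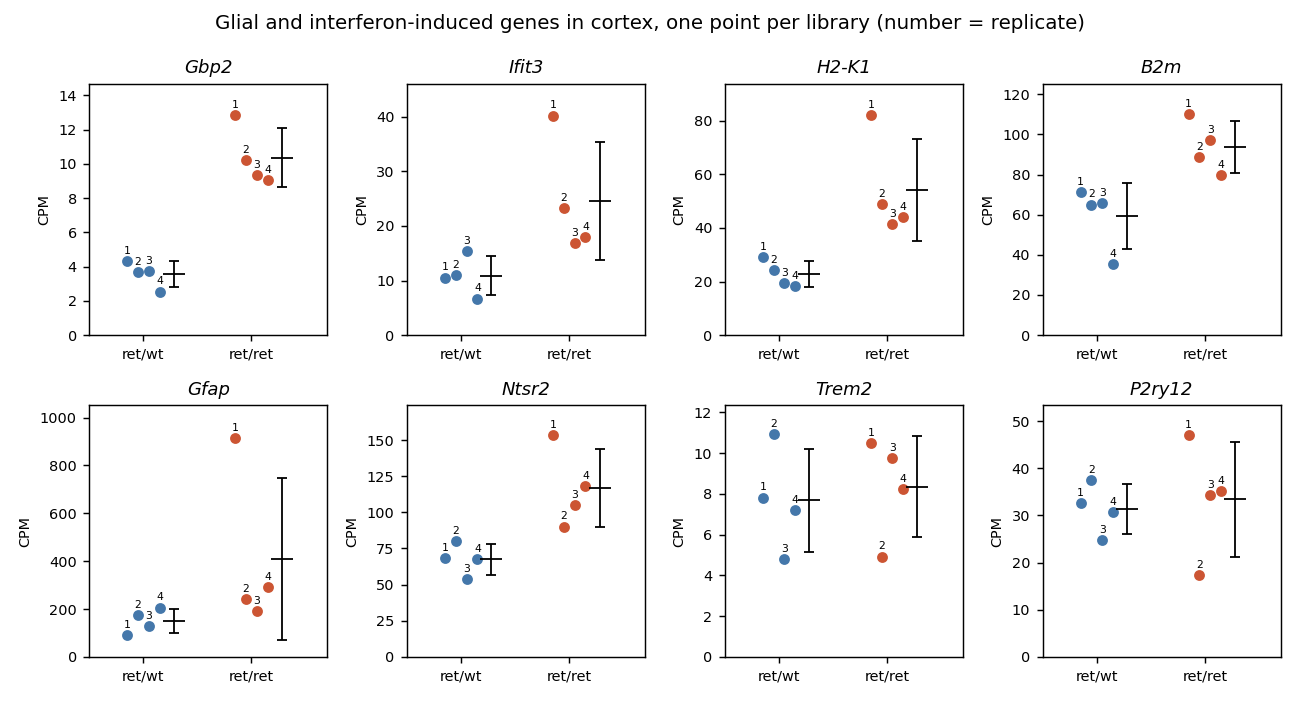
CPM (TMM-scaled) of 8 interferon-induced, antigen presentation, astrocyte and microglia genes in each cortex library, with linear axes from 0; numbered points are libraries, blue for ret/wt and red for ret/ret, and bars are mean and SD of 4 libraries. Gbp2, Ifit3, H2-K1, B2m and Ntsr2 have all red points above all blue points, Gfap has 1 red point at 913 CPM, and Trem2 and P2ry12 overlap.

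Astrocyte identity genes had a log2 fold change above 0 in 13 of 17 cases, with a median of 0.41. Without overlap 2 lay above and 1 below, where 1.80% and 0.644% of all genes did. Acsbg1, an acyl-CoA synthetase, stood at 169, 161, 152 and 127 CPM in ret/wt and at 323, 317, 284 and 169.6 CPM in ret/ret, where ret/ret replicate 4 barely cleared ret/wt replicate 1. Ntsr2, an astrocytic neurotensin receptor, stood at 68.1, 80.3, 53.8 and 67.4 CPM in ret/wt and at 153, 90.2, 105 and 118 CPM in ret/ret. Ppp1r3g, a glycogen-targeting subunit of protein phosphatase 1, was the one below, at 14.7, 11.3, 10.5 and 6.87 CPM in ret/wt and 5.92, 2.27, 4.67 and 5.82 CPM in ret/ret. The median without ret/ret replicate 2, which holds cerebellum markers, was 0.09. Aqp4, the water channel of astrocyte endfeet, stood at 113, 123, 291 and 119.8 CPM in ret/wt and 259, 552, 162 and 216 CPM in ret/ret, where the highest library of each genotype was the one with cerebellum markers. No gene of the endfoot list was free of overlap (14 tested, median 0.11).

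Of 25 reactive astrocyte genes tested out of 33, 17 were above 0, with a median of 0.42, and 4 were higher without overlap, where 1.80% of all genes were. Without ret/ret replicate 2 the median was 0.08, with 13 of 25 above 0. These 4, Gbp2, Iigp1, Psmb8 and Tm4sf1, are also on the GTPase, antigen presentation or arterial lists. The intermediate filament gene Gfap, the usual mark of reactive astrocytes, stood at 89.7, 173, 128 and 206 CPM in ret/wt and 913, 242, 190.1 and 292 CPM in ret/ret, with ret/ret replicate 1 far above and replicate 3 within the ret/wt range. Vim, vimentin, overlapped at a log2 fold change of 0.97 ± 0.50 (SE), with its highest library in each genotype again the one with cerebellum markers. Serpina3n, a secreted protease inhibitor, stood at 17.3, 8.52, 4.66 and 30.9 CPM in ret/wt and 93.3, 5.01, 8.21 and 5.89 CPM in ret/ret, and its log2 fold change of 0.87 turned to -1.26 without ret/ret replicate 1.

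Homeostatic microglia genes were above 0 in 13 of 14 cases, but by a median of 0.15, and without ret/ret replicate 1, the highest library in 11 of the 14, the median was -0.05. Without ret/ret replicate 2, a library with cerebellum markers, the median was 0.36 and 4 of 14 genes were higher without overlap, where 2.58% of all genes were, so the size rested on single libraries in both directions. P2ry12, the ADP receptor of surveying microglia, stood at 32.5, 37.5, 24.7 and 30.7 CPM in ret/wt and 46.99, 17.3, 34.3 and 35.1 CPM in ret/ret. Tmem119 stood at 20.9, 20.7, 13.7 and 21.9 CPM in ret/wt and 23.2, 13.5, 18.8 and 23.04 CPM in ret/ret, and Cx3cr1, the fractalkine receptor, at 54.7, 68.2, 31.5 and 46.2 CPM in ret/wt and 78.3, 36.3, 74.9 and 62.3 CPM in ret/ret. The groups of these 3 genes overlapped broadly. Aif1, which encodes IBA1, was the only one of the 14 free of overlap (2.44% of all genes). It stood at 4.02, 3.94, 3.95 and 4.12 CPM in ret/wt and 8.27, 4.41, 4.46 and 5.06 CPM in ret/ret. Of the 4 ret/ret values, 3 lay within about 1 CPM of the ret/wt values.

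Disease-associated microglia genes, a set that depends only in part on the lipid receptor TREM2, were above 0 in 17 of the 23 tested (of 28). Their median was 0.21, or -0.01 without ret/ret replicate 1. B2m was the only one free of overlap (2.44% of all genes). Trem2 stood at 7.81, 10.9, 4.79 and 7.18 CPM in ret/wt and at 10.5, 4.92, 9.77 and 8.23 CPM in ret/ret, and the genotypes shared nearly the same range. Its adaptor Tyrobp stood at 5.54, 8.45, 6.64 and 6.97 CPM in ret/wt and 12.8, 5.44, 8.14 and 10.0002 CPM in ret/ret, also overlapping. Lpl, lipoprotein lipase, which this set and cortical neurons both express, stood at 25.6, 34.4, 18.3 and 46.004 CPM in ret/wt and at 12.6, 4.54, 21.3 and 15.4 CPM in ret/ret, lower in 3 of 4 ret/ret libraries (log2 fold change -1.20 ± 0.44 (SE), unadjusted p 0.0206). Apoe, the lipid carrier of astrocytes and reactive microglia, overlapped at 0.21 ± 0.39 (SE). Macrophages of the brain borders gave 8 tested genes, none free of overlap, with a median of -0.10.

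In the complement list 12 of the 16 tested genes (of 20) were above 0, with a median of 0.40, or 0.12 without ret/ret replicate 1. The microglial C1q chains had log2 fold changes of 0.57 ± 0.34 (SE) for C1qa, 0.47 ± 0.28 (SE) for C1qb and 0.41 ± 0.29 (SE) for C1qc. In each chain ret/ret replicate 1 was the highest and ret/ret replicate 2 lay within or under the ret/wt range.

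Myelin and oligodendrocyte genes were above 0 in 17 of 18 cases with a median of 0.27, and none was free of overlap. The summed level was 3038, 3477, 5167 and 2002 CPM in ret/wt and 2771, 4966, 4497 and 5172 CPM in ret/ret, lowest in ret/wt replicate 4, the library with choroid plexus and hippocampal markers, and without it the median was 0.09. The median was 0.54 without ret/wt replicate 3 and 0.50 without ret/ret replicate 1, where 18 of 18 genes were above 0 and 2 higher without overlap (3.56% of all genes). Mbp and Mog, which encode myelin proteins, overlapped at log2 fold changes of 0.27 ± 0.28 (SE) for Mbp and 0.46 ± 0.38 (SE) for Mog. Precursor genes were split evenly, 6 above and 6 below 0, with a median of -0.05. Without ret/ret replicate 1, 4 of the 12 were above 0, with a median of -0.40, and 1 was lower without overlap where 1.86% of all genes were.

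Neuronal genes were close to their ret/wt levels or slightly lower. In the pan-neuronal list 6 of 15 genes were above 0, with a median of -0.08, and none was free of overlap. Rbfox3, which encodes NeuN, stood at 272, 160.4, 219.7 and 195 CPM in ret/wt and 204, 171, 240.3 and 186 CPM in ret/ret. Snap25, a protein of synaptic vesicle fusion, stood at 3357, 2528, 2999 and 2094 CPM in ret/wt and 2314, 2786, 3679.8 and 2498 CPM in ret/ret. Tubb3, neuronal tubulin, was at a log2 fold change of 0.16 ± 0.24 (SE). The ranges of the genotypes covered each other in all 3.

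Markers of cortical projection neurons had a median of -0.08 over 22 genes, none free of overlap, and of 0.11 without ret/ret replicate 2. Slc17a7, the vesicular glutamate transporter of cortical excitatory neurons, stood at 1333, 1211, 792 and 1308 CPM in ret/wt and 2251, 591, 1119 and 957 CPM in ret/ret. Camk2a, a kinase of excitatory synapses, stood at 4387, 3441, 2531 and 3507 CPM in ret/wt and 3550.5, 749.9, 3321 and 2331 CPM in ret/ret. Both were lowest in ret/ret replicate 2, the library with the most cerebellum signal. Neurod6, a transcription factor of projection neurons, was at a log2 fold change of -0.07 ± 0.51 (SE), with its highest and its lowest value both in ret/ret.

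Interneuron genes had a median of -0.20 over 21 genes, again without a gene free of overlap. Without ret/wt replicate 3 it was -0.37, with 4 of 21 lower without overlap where 2.62% of all genes were. Gad2, a GABA-synthesising enzyme, stood at 184, 175, 192 and 214 CPM in ret/wt and 197, 199, 207 and 171 CPM in ret/ret. Its relative Gad1 ran from 313 to 416 CPM in ret/wt and from 243 to 728 CPM in ret/ret, and Slc32a1, the vesicular GABA transporter, from 31.3 to 70.9 CPM and from 52.5 to 139 CPM. The highest value of Gad1 and of Slc32a1 was in ret/ret replicate 2, and without that library the log2 fold change of Gad1 went from 0.26 to -0.10.

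Synaptic vesicle and scaffold genes were below 0 in 25 of 28 cases, with a median of -0.23; none was free of overlap and none had an unadjusted p under 0.05. The median was -0.09 without ret/ret replicate 2 and -0.32 without ret/ret replicate 3. Glutamate and GABA receptor genes were below 0 in 24 of 36 cases with a median of -0.11, also without a gene free of overlap. The summed level of the receptor list was 7813, 6480.3, 7064 and 8209 CPM in ret/wt and 6268, 6193, 8442 and 6463 CPM in ret/ret, and its highest and its lowest value were both in ret/ret.

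Immediate early genes, transcription factors and effectors that neurons and other cells switch on within minutes of stimulation, had the lowest median of the neuron lists, -0.50, with 18 of 24 genes below 0. Fosb and Fosl2, members of the AP-1 family, were free of overlap, against 0.644% of all genes on that side. Fosb stood at 18.4, 43.02, 35.1 and 23.8 CPM in ret/wt and at 8.20, 11.4, 16.4 and 14.6 CPM in ret/ret, and Fosl2 at 75.6, 94.8, 110.3 and 79.3 CPM in ret/wt and at 15.7, 52.6, 52.5 and 60.8 CPM in ret/ret. The log2 fold changes were -1.25 ± 0.31 (SE) for Fosb and -0.99 ± 0.36 (SE) for Fosl2, and neither passed, with adjusted p of 0.728 and 0.999 (edgeR quasi-likelihood, Benjamini-Hochberg). In DESeq2 Fosb passed, at an adjusted p of 0.0494.

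Other genes of the list spread more within each genotype. Egr2, a zinc-finger transcription factor, stood at 20.1, 55.4, 24.99 and 8.56 CPM in ret/wt and 2.21, 10.5, 5.49 and 12.5 CPM in ret/ret. Arc, which regulates synaptic glutamate receptors, stood at 599, 749, 427 and 112 CPM in ret/wt and 92.1, 281, 296 and 251 CPM in ret/ret. Fos stood at 74.6, 122, 75.6 and 22.4 CPM in ret/wt and 19.1, 125, 30.8 and 26.9 CPM in ret/ret. In all 3 genes ret/wt replicate 4 lay among the ret/ret libraries, and in Fos ret/ret replicate 2 was the highest of the 8. The median was -0.33 without ret/wt replicate 2 and -0.81 without ret/ret replicate 2. Without ret/wt replicate 4 the median was -0.69 and 7 of 24 genes were lower without overlap, where 1.56% of all genes were.

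**Figure D4:**
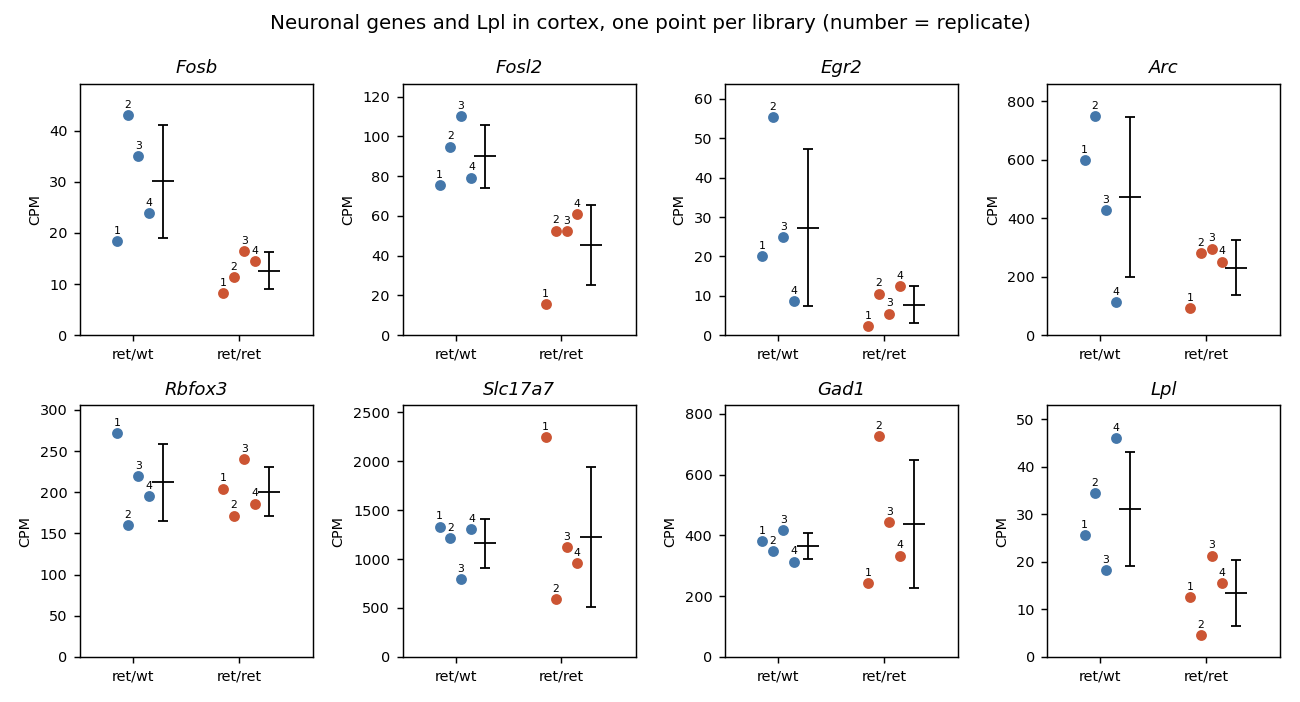
CPM (TMM-scaled) of 4 immediate early genes, 3 neuron markers and Lpl in each cortex library, with linear axes from 0; numbered points are libraries, blue for ret/wt and red for ret/ret, and bars are mean and SD of 4 libraries. Fosb and Fosl2 have all red points below all blue points, whereas Rbfox3, Slc17a7 and Gad1 overlap.

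Beyond the lists, the largest differences among genes with a mean log2 CPM of at least 1, an unadjusted p under 0.05 and no overlap are described by size alone, since the choice rests on these values. Above were Adh1, Cdh26, Edn1, Clec14a, Fmo2, Hist1h1e, H2-Q7, Angpt2, Ctla2a, Fgfbp1, Iigp1, Lpar6, Il17rc, Vwf and Ky, with log2 fold changes of 1.86 to 3.44. Ctla2a, a cathepsin inhibitor-like protein, stood at 3.49, 6.06, 5.84 and 2.54 CPM in ret/wt and at 25.2, 18.6, 21.6 and 19.6 CPM in ret/ret. Lpar6, a lysophosphatidic acid receptor, stood at 1.82, 1.97, 1.34 and 2.32 CPM in ret/wt and at 7.77, 5.87, 8.35 and 6.65 CPM in ret/ret. Both were narrow within each genotype and well apart between them, with adjusted p of 0.0659 and 0.0995 (edgeR quasi-likelihood, Benjamini-Hochberg). Adh1, an alcohol dehydrogenase that can oxidise retinol, stood at 0.834, 0, 0.0840 and 0.792 CPM in ret/wt, where 1 library had no counts, and at 6.85, 3.98, 5.31 and 2.34 CPM in ret/ret.

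Below were Abcc9, Egflam, Fam228b, Rgs5, Gm49353, St8sia6, Cyp4f15, Ccbe1, Fosb, Ppp1r3g, Egfl6, Fosl2, Met, Cdkn1c and Fbn1, with log2 fold changes of -2.69 to -0.84. Egflam, an extracellular matrix protein known as pikachurin, stood at 7.74, 5.21, 5.17 and 5.33 CPM in ret/wt and at 3.35, 1.63, 0.637 and 0.823 CPM in ret/ret. St8sia6, a sialyltransferase, stood at 3.11, 2.82, 3.40 and 3.33 CPM in ret/wt and at 1.498, 1.24, 1.45 and 0.633 CPM in ret/ret. The ret/wt libraries lay within a narrow band in both genes, apart from replicate 1 of Egflam. Fbn1, the microfibril protein fibrillin-1, stood at 8.57, 9.29, 5.42 and 8.03 CPM in ret/wt and at 5.21, 3.81, 4.35 and 4.05 CPM in ret/ret.

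Values in thalamus of the same animals were set beside the cortex ones to see where the genotype differences differ between a region without and a region with calcifications. In thalamus 0 of 14767 genes passed the adjusted threshold in edgeR and 38 passed in DESeq2, and for the difference between regions 0 of 15286 genes passed in edgeR and 4 in DESeq2, with 245 genes (1.60%) at an unadjusted p under 0.05. The regions share animals but no library. The fit for the difference between regions took cortex and thalamus of an animal as independent, except where the animal is named as a block. Of the 15 genes named as highest in cortex, 14 had a log2 fold change above 0 in thalamus, and of the 15 named as lowest, 13 were below 0. Without overlap in thalamus were 9 of the 15 on the higher side, where 1.92% of all genes were, and 2 of the 15 on the lower side, where 0.806% were. Abcc9 was at -1.79 ± 0.49 (SE) in thalamus and Clec14a at 1.67 ± 0.49 (SE). Vwf was at 0.31 ± 0.92 (SE) and Angpt2 at 0.21 ± 0.79 (SE), against 1.91 and 2.42 in cortex. The difference between regions, cortex minus thalamus, was 2.22 ± 1.02 (SE) for Angpt2 (unadjusted p 0.0440), and with the animal as a block it was 1.40 (unadjusted p 0.172). For Vwf the difference was 1.57 ± 1.08 (SE) (unadjusted p 0.166). With the animal as a block the Vwf difference was 0.44 (unadjusted p 0.568, edgeR quasi-likelihood). Egflam was at 0.11 in thalamus, a difference between regions of -1.99 ± 0.66 (SE) with an unadjusted p of 0.00806. St8sia6 was at -0.02, a difference of -1.34 ± 0.52 (SE) with an unadjusted p of 0.0208. With the animal as a block the differences were -2.24 for Egflam (unadjusted p 0.00613) and -1.46 for St8sia6 (unadjusted p 0.0337), by edgeR quasi-likelihood.

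**Figure D5:**
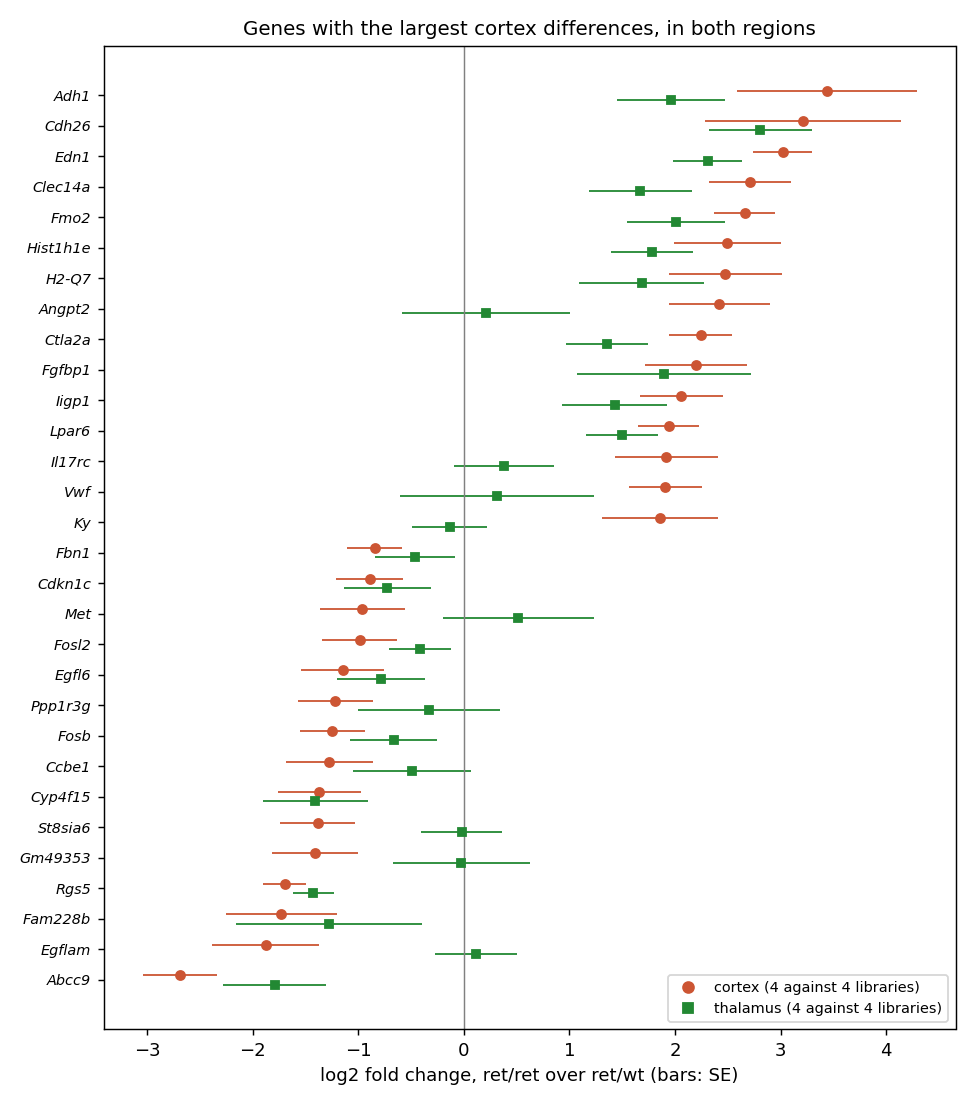
Log2 fold change of ret/ret over ret/wt with its SE for the 15 highest and 15 lowest genes of the cortex comparison, in cortex (red circles) and in thalamus (green squares), 4 against 4 libraries each. Of the 30 squares 27 lie on the same side of 0 as their circle, all but those of Ky, Egflam and Met.

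By list, the pericyte median was -0.62 in cortex and -0.59 in thalamus, and the endothelial identity median 0.74 and 0.57. Interferon genes had medians of 0.87 and 0.62, and immediate early genes of -0.50 and 0.04. Homeostatic and disease-associated microglia genes had medians of 0.15 and 0.21 in cortex, beside 0.63 and 0.73 in thalamus. No list was tested between regions. The single gene with the smallest p for the difference among those named was Lpl, at -1.20 in cortex and 1.67 in thalamus. Its difference was -2.86 ± 0.53 (SE) with an unadjusted p of 5.6e-05, short of the threshold after adjustment in edgeR (adjusted p 0.859, the smallest of all genes), and it passed in DESeq2. For Trem2 the difference was -0.93 ± 0.46 (SE) with an unadjusted p of 0.0618. With the animal as a block the differences were -2.98 for Lpl (unadjusted p 0.000192) and -0.88 for Trem2 (unadjusted p 0.0619), by edgeR quasi-likelihood.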

How the data were processed

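Polyadenylated RNA of 8 animals, 4 per genotype, was sequenced from cortex and thalamus with a stranded kit, per the labels' protocols. The deposited values are expected counts per gene; kallisto 0.44.0 and GRCm38.p6 are named in the submitters' processing notes, and the step from transcripts to genes is not given in the sources used here. All 100.0% of nonzero values were not whole and were rounded. Of 21804 genes, 21612 (99.1%) matched GENCODE M21, the source of coordinates.

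The 8 cortex libraries were fitted alone with edgeR 4.0.16 (R 4.3.3): filterByExpr (minimum count 10, minimum total 15), TMM scaling, quasi-likelihood test, Benjamini-Hochberg at 0.05. Thalamus was fitted the same way, and the difference between regions in 1 fit of all 16 libraries. Cortex and thalamus of an animal, tied by the animal letter in the labels, had residual correlations of -0.02 to 0.24, and blocking by animal also gave 0 calls. "Without overlap" means all 4 ret/ret CPM values above, or all below, all 4 ret/wt values. The alternatives were other scalings and filters, DESeq2 1.42.0, limma 3.58.1 voom, a robust fit, a joint fit, a replicate block, a Y-linked covariate, left-out libraries and a bias-adjusted fit, the last chosen after seeing the data. The fit was tested on simulated counts. Genes with values in the text are those called, the 15 largest differences in each direction with an unadjusted p under 0.05, no overlap and a mean log2 CPM from 1 upward, list members without overlap, the first 3 genes of a list, and Trem2. The members and the lists were chosen with earlier results of these data known. Some genes are not reported here.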

Additional observations from a re-analysis of the deposited data

Results flagged for a closer look

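In groups of 4 libraries, 1 library lay far from the other 3, by Dixon's ratio of gap to range, in 19 of 246 gene groups and 9 of 82 list groups, where chance gives about 1 in 20, or 12.3 and 4.1. None of the differences between regions passed adjustment in edgeR, and 4 genes did in DESeq2.

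In ret/ret replicate 1 the highest value stood apart for 7 genes. Tie1 was at 21.7 CPM against 12.1 to 13.4 CPM in the other 3 libraries, Gkn3 at 9.77 CPM against 4.49 to 5.22 CPM, and Fgfbp1 at 14.8 CPM against 4.88 to 5.66 CPM. Gfap was at 913 CPM against 190.1 to 292 CPM, Serpina3n at 93.3 CPM against 5.01 to 8.21 CPM, Iigp1 at 8.06 CPM against 3.57 to 4.24 CPM, and Aif1 at 8.27 CPM against 4.41 to 5.06 CPM. Summed lists that stood apart in this library were VEGF and tip cell genes (437 CPM against 331 to 342 CPM), disease-associated microglia genes (5183 CPM against 3664 to 3923 CPM), and guanylate-binding proteins and GTPases (161 CPM against 95.9 to 99.6 CPM).

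In ret/ret replicate 2, Il17rc was at 8.39 CPM against 2.34 to 3.16 CPM, Fos at 125 CPM against 19.1 to 30.8 CPM, Slc32a1 at 139 CPM against 52.5 to 64.2 CPM, and Cyp4f15 low at 2.10 CPM against 4.94 to 5.42 CPM. Cerebellum genes summed to 4873 CPM there against 25.1 to 64.3 CPM. In ret/ret replicate 3 the receptor list summed to 8442 CPM against 6193 to 6463 CPM.

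In ret/wt replicate 3, Rgs5 was low at 46.6 CPM against 60.3 to 61.6 CPM, as was Tmem119 at 13.7 CPM against 20.7 to 21.9 CPM. Icam1 was high at 12.4 CPM against 2.22 to 2.82 CPM and Aqp4 at 291 CPM against 113 to 123 CPM, and cerebellum genes summed to 2075 CPM against 48.7 to 53.8 CPM. In ret/wt replicate 2, Cdh26 was at 1.83 CPM against 0.0528 to 0.303 CPM, Met at 20.4 CPM against 10.5 to 11.4 CPM, and disease-associated microglia genes at 5078 CPM against 3672 to 3840 CPM. In ret/wt replicate 4, Ifih1 was low at 4.07 CPM against 6.76 to 7.13 CPM, choroid plexus genes summed to 1723 CPM against 300.2 to 428 CPM, and hippocampal genes to 248 CPM against 37.0 to 42.4 CPM. In ret/wt replicate 1, Egflam was at 7.74 CPM against 5.17 to 5.33 CPM. The part of these libraries' markers of other regions in the gene values was not tested.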

How the results depend on the processing

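The count of 3 genes called in cortex became 39 with the DESeq2 test, 7 with all 16 libraries in one fit, 0 with the replicate block, 1 (Edn1) without both libraries that hold cerebellum markers, and 0 to 2 with 1 library left out. It stayed within 1.5 times under the other 8 alternatives (2 to 4 genes), and the cause of these shifts was not tested. Same-numbered cortex libraries of the genotypes are different animals, with residual correlations of 0.06, -0.12, -0.06 and 0.16, so the block rests on a number alone. Adjusted p over all alternatives ran from 1.0e-19 to 0.291 for Edn1, from 2.0e-14 to 0.291 for Fmo2 and from 8.9e-11 to 0.291 for Rgs5, and their direction held in each. The 349 genes without overlap became 1365 without both libraries and 552 to 976 with 1 left out, where fewer libraries separate more easily. In thalamus DESeq2 called 38 genes and for the difference between regions 4, where edgeR called 0.

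Over the values of 123 named genes under all alternatives, 2347 kept direction and call, 31 newly passed and 24 no longer passed. Among genes with no call, log2 fold changes turned sign in 45 values. With voom they were -0.0069 for Vtn, -0.081 for Serpina3n and -0.050 for Slc17a7. With the block they were -0.030 for Vtn, 0.076 for Icam1 and -0.055 for Slc17a7. With the covariate they were -0.032 for Vtn and 0.082 for Icam1. Without both libraries they were -0.53 for Vtn, -0.15 for Acta2, 0.63 for Icam1, -0.16 for Apoe, 0.011 for Rbfox3, 0.10 for Neurod6, -0.029 for Gad1 and -0.15 for Slc32a1. In the joint fit it was -8.7e-05 for Gad2. With 1 library left out, genes that turned sign had values of -0.44 to 0.45 for Vtn, -0.035 to 0.26 for Acta2, -0.59 to 0.64 for Icam1, -1.26 to 1.47 for Serpina3n, -0.12 to 0.31 for P2ry12, -0.12 to 0.17 for Tmem119, -0.060 to 0.33 for Trem2, -0.057 to 0.43 for Apoe, -0.21 to 0.063 for Rbfox3, -0.034 to 0.26 for Tubb3, -0.12 to 0.15 for Snap25, -0.38 to 0.31 for Slc17a7, -0.55 to 0.22 for Neurod6, -0.10 to 0.46 for Gad1 and -0.039 to 0.076 for Gad2. Levels near or below the 3-count floor of 0.103 to 0.224 CPM, such as those of Kcnj8 in ret/ret, are imprecise.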

Other observations

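Other tested lists gave smaller or uneven values. Chemokine genes had a median log2 fold change of 0.10 over 10 tested of 21, and ependymal genes of -0.17 over 4. Striatal neuron genes had a median of -0.03 over 11 and thalamic neuron genes of 0.63 over 8. Cerebellum genes had a median of 1.13, and choroid plexus and hippocampal genes of -1.58 and -1.10. Without ret/ret replicate 2 the thalamic median was 0.12 and the cerebellum median -3.86, and without ret/wt replicate 3 the cerebellum median was 4.39. Without ret/wt replicate 4 the choroid plexus median was -0.22 and the hippocampal one 0.40.

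Histone transcripts were among the larger differences in these polyadenylated libraries. Hist1h1e, a linker histone gene, stood at 0.455, 0.986, 1.09 and 0.898 CPM in ret/wt and at 9.41, 2.23, 4.60 and 3.48 CPM in ret/ret, without overlap, and passed in DESeq2 together with Hist1h1c and Hist1h2be, which were looked at after their calls were seen. Alike copies in this cluster make the split of reads among them uncertain. Cdh26, a cadherin, stood at 0.303, 1.83, 0.0840 and 0.0528 CPM in ret/wt and at 2.92, 3.47, 8.78 and 5.06 CPM in ret/ret, and in thalamus its log2 fold change was 2.81 ± 0.49 (SE). Fgfbp1, a carrier protein of fibroblast growth factors, stood at 2.05, 2.32, 1.64 and 0.739 CPM in ret/wt and at 14.8, 4.88, 5.66 and 5.63 CPM in ret/ret, with 1.90 ± 0.82 (SE) in thalamus. The ret/ret libraries were above all ret/wt libraries in both genes, and replicate 1 was the highest in Fgfbp1.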
